A study of Mus musculus with 9 samples.

Results

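Glutathione synthesis and cysteine supply was followed through 9 mouse genes, Gclc, Gclm, Gss, Gsr, Slc7a11, Cth, Cbs, Cdo1 and Ggt1, named as a pathway and matched by gene symbol, with earlier results of these data known. The platform annotation gave 11 probe sets for 8 of the 9 genes, out of 22626 probe sets and 12393 named genes in the whole table. No probe set carried the symbol Ggt1, so this gene, whose product starts the breakdown of glutathione outside the cell, was not analysed here. Gclc, Gsr and Cbs each had 2 probe sets and the other genes 1.

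RNA came from TAMH cells, a hepatocyte line derived from mice that carry a transforming growth factor alpha transgene under a metallothionein promoter, labelled as liver cells of strain C57BL/6. The cells were kept for 2, 6 or 24 h with acetaminophen (APAP) at 2 mM, with its regioisomer AMAP at 2 mM, or in control medium without either compound, and all groups share the line and its transgene. Both compounds are acetylated aminophenols, and the hydroxyl group sits para to the amide in APAP and meta to it in AMAP. The series title describes AMAP as the less hepatotoxic of the pair. Each of the 9 combinations of treatment and time was measured on 1 Affymetrix array, from cells of 2 culture dishes, so no replicate bears on a difference at 1 time, and such differences carry no p.

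Glutathione is a tripeptide of glutamate, cysteine and glycine, and cysteine is usually the scarce building block. The cell obtains cysteine as imported cystine or makes it from methionine by transsulfuration, and loses it by oxidation. In liver, the reactive quinone imine formed from APAP is trapped by glutathione, and loss of hepatic glutathione is the known early step of APAP injury. Genes of this pathway are known targets of NRF2, the factor that answers electrophiles, and of ATF4, the factor that answers amino acid shortage and stress.

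Values are log2 expression per probe set, so that 1 unit is a 2-fold difference. A probe set was counted as 2-fold apart where 2 arrays differed by at least 1 and the higher of them reached 5.65, the median over all probe sets and arrays. All 9 measured hepatocyte markers had means of 9.18 or more, led by Alb. The 6 macrophage, 7 stellate and fibroblast and 6 endothelial markers all had means under the median of probe-set means, 5.66. Of the 4 measured cholangiocyte markers, 3 lay above it, with Krt7 at 9.35, and Epcam lay at 4.31. The arrays of APAP at 6 and 24 h and of AMAP at 24 h stood apart from the rest. On these 3 arrays the middle probe set of dap, a bacterial control RNA, read -1.94 to -1.58 log2 against its 3′ probe set, compared with -0.60 to -0.44 on the other 6. The median difference from control over all probe sets was 0.08 for APAP and -0.09 for AMAP at 6 h, and 0.14 and 0.13 at 24 h. Between APAP and AMAP it was 0.20 at 6 h, and at 2 h it was 0 in each comparison. Differences of members at 6 and 24 h should be read against these shifts, and the part of the 3 arrays in them was not tested.

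At 2 h the member probe sets mostly read lower in APAP than in control or AMAP, on single arrays. In APAP all 11 probe sets read lower than in control, with a median difference of -0.44 log2, while 46.8% of all probe sets did so. The differences ran from -1.46 for Cdo1, the only member 2-fold lower, to -0.04 for Gss. The 11 probe sets stand for 8 genes and were read from the same pair of arrays, so they are not independent counts. Shares of all probe sets include those of low level. In AMAP 5 read higher and 6 lower than control, with a median of -0.03. In RNA from whole dishes, fewer cells that express a gene and less of its RNA per cell cannot be told apart. Against AMAP, 10 of 11 read lower in APAP, with a median of -0.29, and 45.6% of all probe sets did so. Slc7a11 and Cth, which supply cysteine, were farthest apart between the compounds, and Cdo1, which removes it, was farthest from control, by much the same amount with either compound.

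**Figure D1:**
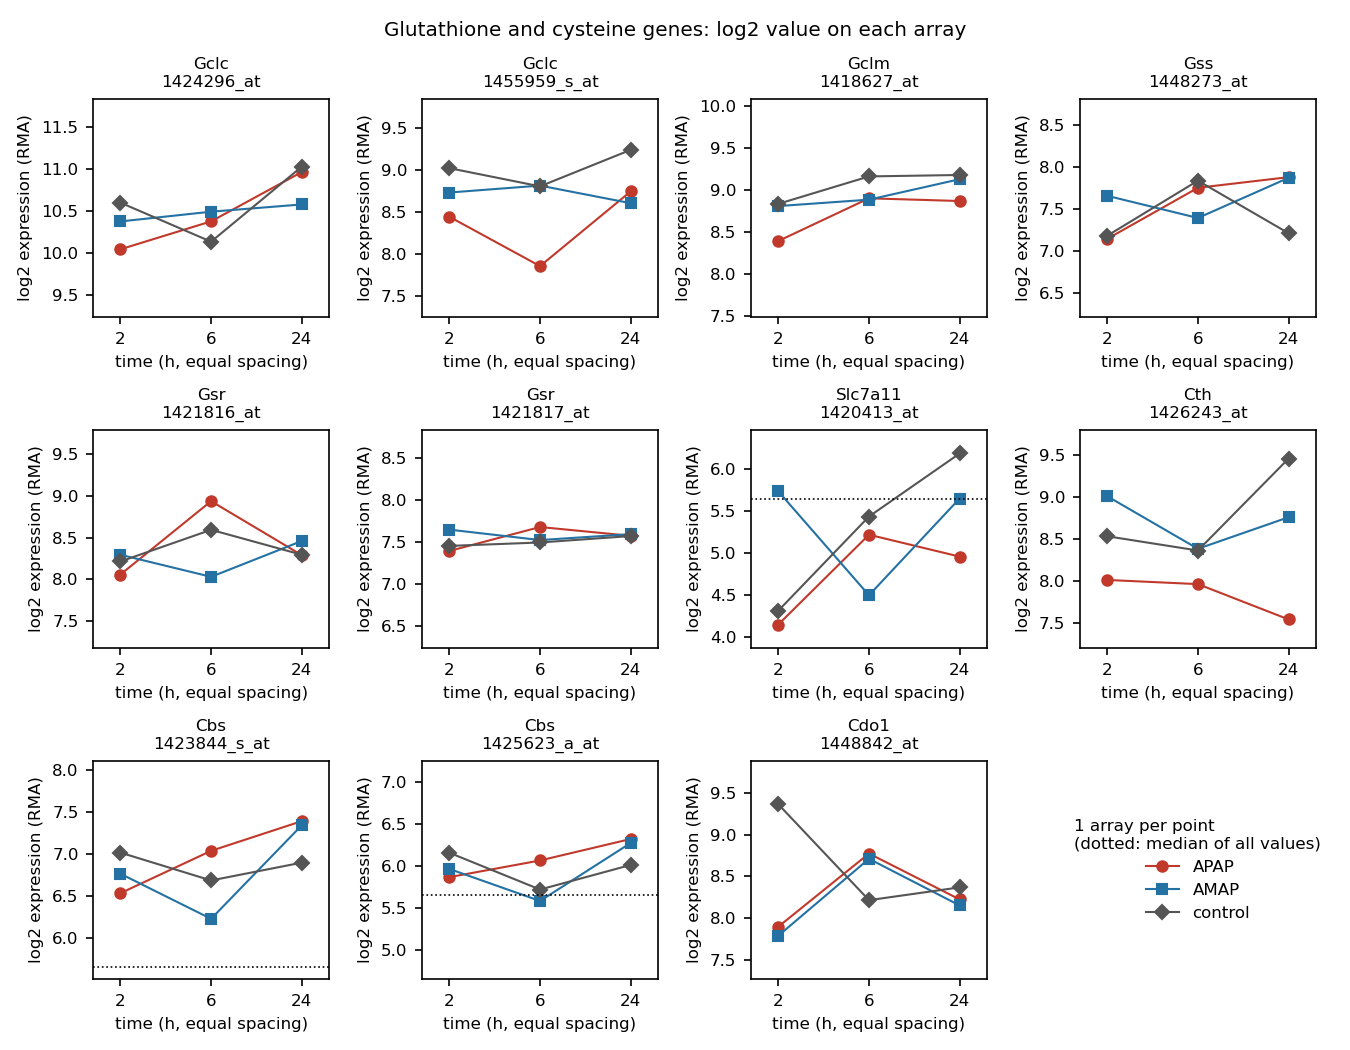
Log2 expression of each of the 11 member probe sets (y axis, every panel 2.6 log2 units high) at 2, 6 and 24 h (x axis, equal spacing) in APAP (circles), AMAP (squares) and control (diamonds), 1 array per point, with the median of all values as a dotted line where it falls in the panel. Cth lies lowest in APAP at all 3 times, Slc7a11 lies highest in AMAP at 2 h and in control at 24 h, and Cdo1 is highest in the 2 h control.

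Slc7a11 encodes the light chain of system xc-, the exchanger that imports cystine for glutamate. It read 4.15, 5.22 and 4.96 log2 in APAP at 2, 6 and 24 h, 5.74, 4.50 and 5.65 in AMAP, and 4.32, 5.44 and 6.19 in control. It was the dimmest member, with 3 of 9 arrays reaching that median, and RMA narrows differences at such levels. At 2 h AMAP was the only array to reach the median, and it differed from control by 1.42, while APAP against control was -0.16 and APAP against AMAP -1.59. The APAP and control readings at 2 h lie well under the median and are not shown to be above background, so no fold is given. By 24 h control was the highest array, and the differences from it were -1.23 in APAP and -0.54 in AMAP.

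The promoter of Slc7a11 is shown because this gene and many ATF4 targets were higher in AMAP than in APAP at 2 h. RefSeq promoters, 250 bases before to 50 after a transcript start on build GRCm38.p6, were listed for 5 of the 9 members, namely Gclm, Gss, Slc7a11, Cbs and Ggt1. They were searched on both strands for TGATGNAA, the CEBP-ATF response element that ATF4 can bind, and for TGACNNNGC, the core of the antioxidant response element that NRF2 can bind. No match of one overlapped a match of the other in these windows. The CEBP-ATF motif was found in 3.97% and the antioxidant core in 12.4% of all 32851 promoters of the table. The window of Slc7a11 held 2 matches to the CEBP-ATF motif and none to the antioxidant core. A match does not show that a factor binds there, and a part of either factor in these differences was not tested. The matches begin 66 and 47 bases before that start, the first on the strand of the gene at chr3:50443672-50443679 and the other on the opposite strand at chr3:50443653-50443660. The annotated gene spans chr3:50364936-50499087, so this start lies inside it, downstream of its outermost 5′ end. The 250 bases before the start used, on the minus strand at chr3:50443614-50443863, are given 5′ to 3′ with both matches in capitals.
Slc7a11: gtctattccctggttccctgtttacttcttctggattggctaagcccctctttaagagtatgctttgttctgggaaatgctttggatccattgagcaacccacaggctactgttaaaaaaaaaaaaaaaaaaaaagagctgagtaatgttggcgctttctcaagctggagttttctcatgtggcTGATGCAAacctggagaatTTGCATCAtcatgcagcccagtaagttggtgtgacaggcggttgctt

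Cth encodes cystathionine gamma-lyase, the last enzyme of transsulfuration, which releases cysteine. It read 8.01, 7.96 and 7.54 log2 in APAP at 2, 6 and 24 h, 9.01, 8.38 and 8.76 in AMAP, and 8.53, 8.36 and 9.46 in control. APAP was the lowest of the 3 arrays at every time. How many of all probe sets kept such an order was not counted. The difference from control was -0.52, -0.40 and -1.92 in APAP and 0.48, 0.02 and -0.70 in AMAP. APAP against AMAP was -0.997 at 2 h, just inside 2-fold, then -0.42 at 6 h and -1.22 at 24 h. The 24 h difference in APAP, 3.78-fold, was the widest of any member in any treatment comparison, and in it the control array was itself the highest of the 9.

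Cbs encodes cystathionine beta-synthase, which starts transsulfuration from homocysteine. Its brighter probe set read 6.53, 7.04 and 7.39 log2 in APAP at 2, 6 and 24 h, 6.76, 6.23 and 7.34 in AMAP, and 7.02, 6.68 and 6.90 in control. Its order among the treatments turned with time, with control highest at 2 h, APAP highest at 6 h and both compounds above control at 24 h. The widest difference was 0.81, APAP against AMAP at 6 h. The dimmer probe set, between 5.58 and 6.32, had the same sign in all 9 treatment comparisons, and the pair correlated at r = 0.96 across the 9 arrays, which share the same RNA. Cbs thus did not follow Cth at 24 h, where APAP was 0.49 above control for Cbs and -1.92 for Cth.

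Cdo1 encodes cysteine dioxygenase, which oxidises cysteine toward taurine and sulfate. It read 7.90, 8.77 and 8.23 log2 in APAP at 2, 6 and 24 h, 7.79, 8.71 and 8.15 in AMAP, and 9.36, 8.22 and 8.37 in control. At 2 h both compounds were lower than control, 2.75-fold in APAP and 2.96-fold in AMAP. The compounds lay within 0.11 of each other at every time, with APAP above AMAP by 0.11, 0.06 and 0.07. The 2 h control was the highest of the 9 arrays, and the later control arrays were -1.14 (6 h) and -0.99 (24 h) from it. At 6 h both compounds read above control, by 0.56 and 0.49. The 2 h difference therefore uses a control array that stands above the other controls, and the part of that array was not tested.

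Gclc encodes the catalytic subunit of glutamate-cysteine ligase, the rate-limiting enzyme of glutathione synthesis. Its brighter probe set read 10.04, 10.37 and 10.96 log2 in APAP at 2, 6 and 24 h, 10.37, 10.49 and 10.57 in AMAP, and 10.60, 10.13 and 11.03 in control. The dimmer one read 8.44, 7.85 and 8.74 in APAP, 8.73, 8.81 and 8.60 in AMAP, and 9.02, 8.80 and 9.24 in control. Both put APAP below control at 2 h by about the same amount, at -0.56 and -0.58, with AMAP between APAP and control. At 6 h they parted, with APAP against control at 0.24 on the brighter and -0.95 on the dimmer probe set. The 6 h array of APAP gave the lowest of the 9 values on the dimmer probe set, and it is among the 3 that stood apart. Across the 9 arrays the pair correlated at r = 0.49, and 8 of 9 treatment comparisons had the same sign.

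Gclm encodes the modifier subunit of the same ligase, which raises its affinity for glutamate. It read 8.39, 8.90 and 8.87 log2 in APAP at 2, 6 and 24 h, 8.81, 8.89 and 9.13 in AMAP, and 8.84, 9.16 and 9.18 in control. Control was the highest array at each time, and the differences were small, at -0.44, -0.26 and -0.31 in APAP and -0.03, -0.28 and -0.05 in AMAP. Its promoter is shown as the counterpart to that of Slc7a11, since both genes are known NRF2 targets. The window held 1 match to the antioxidant core, on the opposite strand at chr3:122245423-122245431, and none to the CEBP-ATF motif. The match begins 134 bases before the start used by the table and 64 bases before the annotated gene, whose outermost 5′ end lies upstream of that start. The 180 bases that precede the annotated gene, on the plus strand at chr3:122245307-122245486, are given with the match in capitals.
Gclm: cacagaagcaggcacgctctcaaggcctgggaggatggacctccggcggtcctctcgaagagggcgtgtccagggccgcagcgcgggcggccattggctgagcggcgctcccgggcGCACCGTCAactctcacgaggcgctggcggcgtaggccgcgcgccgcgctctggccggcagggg

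Of the other promoters, that of Gss and that of Cbs held neither motif. Of the 4 listed for Ggt1, 3 held the antioxidant core.

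Gss encodes glutathione synthetase, which adds glycine. It read 7.14, 7.75 and 7.88 log2 in APAP at 2, 6 and 24 h, 7.65, 7.39 and 7.87 in AMAP, and 7.18, 7.83 and 7.21 in control. At 24 h both compounds were above control by 0.67 and 0.66, which is past 1.5-fold, and both of those arrays are among the 3 that stood apart. The control arrays alone differed by as much, with 0.66 from 2 to 6 h and -0.63 from 6 to 24 h. At 2 h AMAP was 0.48 above control and APAP at -0.04.

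Gsr encodes glutathione reductase, which returns oxidised glutathione to its reduced form. Its brighter probe set read 8.06, 8.93 and 8.29 log2 in APAP at 2, 6 and 24 h, 8.29, 8.03 and 8.46 in AMAP, and 8.21, 8.59 and 8.29 in control. The dimmer one varied by only 0.29 over all 9 arrays, between 7.40 and 7.68. At 6 h APAP against AMAP was 0.90 on the brighter and 0.16 on the dimmer probe set, so that the wide value was not shared. Their correlation across the 9 arrays was r = 0.62.

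**Figure D2:**
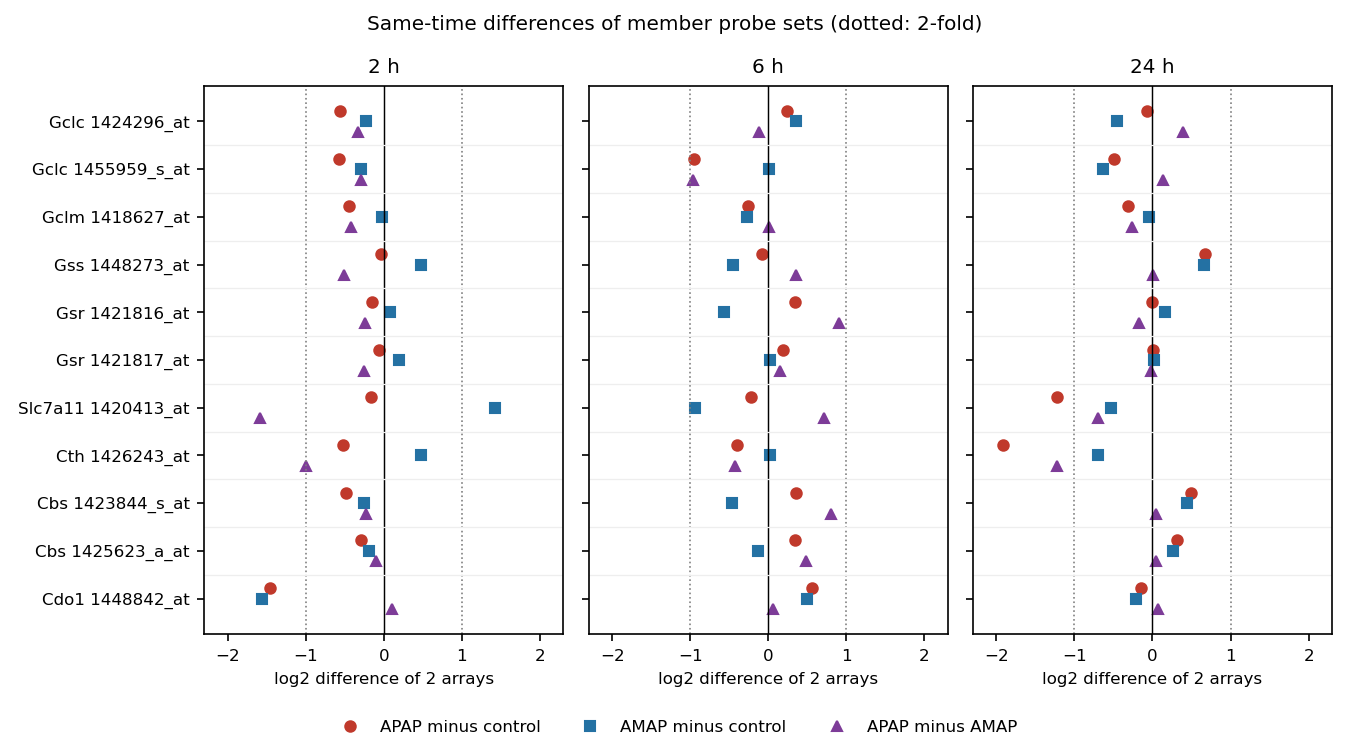
Log2 differences between 2 arrays of the same time (x axis) for each member probe set (rows) at 2, 6 and 24 h, as APAP minus control (circles), AMAP minus control (squares) and APAP minus AMAP (triangles), with dotted lines at 2-fold. Slc7a11 in AMAP and Cdo1 in both compounds are past 2-fold at 2 h, none is at 6 h, and Cth and Slc7a11 in APAP are at 24 h. Slc7a11 in APAP lies under the median of all values at both of these times, as does its 2 h control.

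Few members were 2-fold apart at any time. At 2 h 1 of the 10 probe sets that passed the level filter was 2-fold from control in APAP (Cdo1), where 1.98% of all probe sets that passed were. In AMAP 2 of 11 were (Slc7a11 higher, Cdo1 lower), against 1.75%. Between APAP and AMAP 1 of 11 was (Slc7a11), against 1.58%, and Cth lay just outside at -0.997. Slc7a11 passed the filter at 2 h only through the AMAP array, at 5.74 log2, with control at 4.32 and APAP at 4.15. At 6 h none of 10 was 2-fold apart in any of the 3 comparisons, where 8.44% were in APAP against control, 2.79% in AMAP against control and 15.5% in APAP against AMAP. At 24 h 2 of 11 were 2-fold lower than control in APAP (Cth and Slc7a11), against 9.16% apart in either direction. In AMAP 0 of 11 were, against 5.57%, and between APAP and AMAP 1 of 11 was (Cth), against 3.75%. The 24 h call of Slc7a11 also rested on 1 array past the filter, control at 6.19 log2, with APAP at 4.96.

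A fit over all 9 arrays with time as a block asked which differences recurred at 2, 6 and 24 h. It treats an effect confined to 1 time as error. After adjustment 0 of 22626 probe sets passed limma's test (adjusted p under 0.05) in each contrast. At an unadjusted p under 0.05 there were 1636 (7.23%) for APAP against control, 124 (0.548%) for AMAP against control and 1045 (4.62%) for APAP against AMAP. Members counted among these were 2 of 11, 0 of 11 and 1 of 11 in the same order.

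Cth had the widest shared difference of the members. It averaged 7.84 ± 0.26 log2 in APAP, 8.72 ± 0.32 in AMAP and 8.78 ± 0.59 in control (SD over the 3 times, n = 3 arrays each). APAP against control was -0.95 with a 95% interval of -1.62 to -0.27, lower at 3 of 3 times, with limma's unadjusted p = 0.0116 and adjusted p = 0.623. APAP against AMAP was -0.88, with an interval of -1.55 to -0.21, lower at 3 of 3 times and with limma's adjusted p = 0.811. AMAP against control was -0.07, with an interval of -0.74 to 0.60, higher at 2 of 3 times. Without the 24 h arrays APAP against control came to -0.46, and without the 3 arrays that stood apart to -0.63.

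The ligase subunits gave smaller shared differences. The dimmer Gclc probe set was lower in APAP than in control at 3 of 3 times, by -0.67 (-1.16 to -0.19, limma's adjusted p = 0.623), but the brighter one gave -0.13 (-0.61 to 0.36). Gclm was lower at 3 of 3 times, by -0.34 (-0.69 to 0.02, limma's adjusted p = 0.623). For Slc7a11 the intervals were wide, -1.55 to 0.48 for APAP against control and -1.54 to 0.50 for APAP against AMAP, around values of -0.54 and -0.52. The second came to 0.01 without the 2 h arrays and -1.14 without the 6 h arrays, and the first to -0.19 without the 24 h arrays. For Gss, Gsr, Cbs and Cdo1 every interval included 0 in the 3 contrasts. The narrowest interval for APAP against AMAP among them was that of the dimmer Gsr probe set, -0.39 to 0.31. These misses do not show that the compounds act alike.

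**Figure D3:**
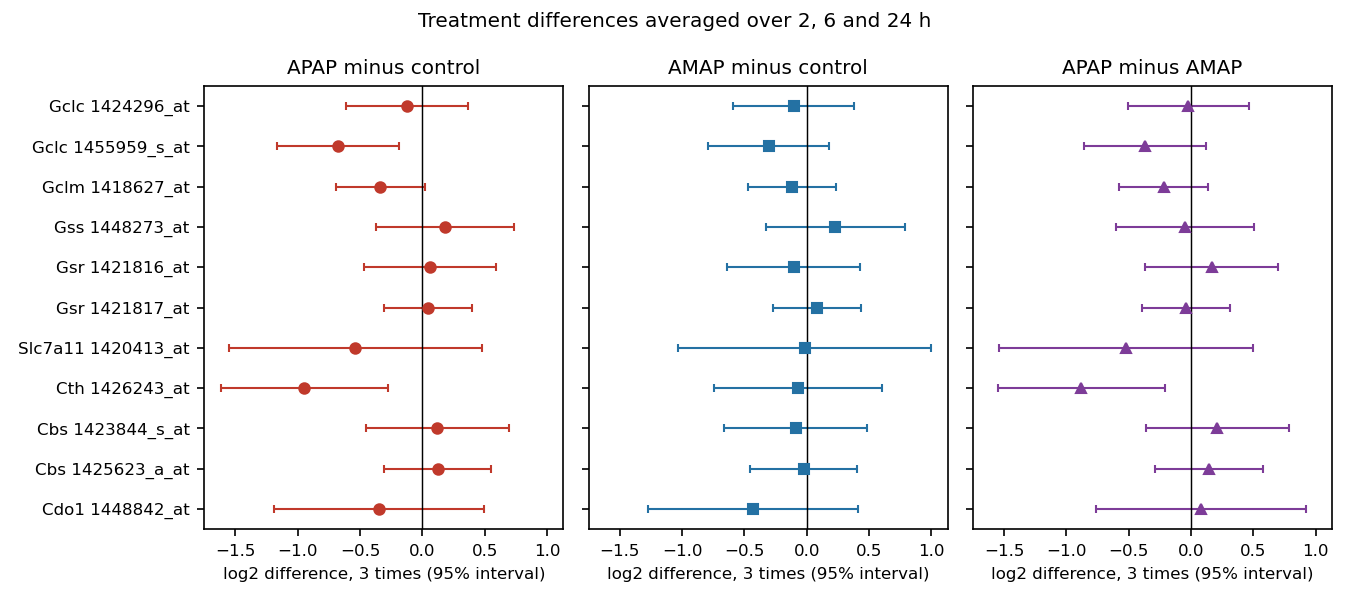
Treatment differences averaged over 2, 6 and 24 h in log2 units (x axis) for each member probe set (rows) in the 3 contrasts, with 95% intervals from the limma fit of all 9 arrays. The interval of Cth excludes 0 for APAP minus control and for APAP minus AMAP, and that of the dimmer Gclc probe set (the second row) for APAP minus control, before adjustment over all probe sets.

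Genes around the pathway were taken from 5 lists, each gene by its brightest probe set. The lists were chosen with earlier results of these data known, so their counts are a description. ATF4, its partners and other targets, 16 of 16 measured, divided the compounds as Slc7a11 and Cth did at 2 and 24 h. At 2 h all 16 read higher in AMAP than in control, as 45.7% of all probe sets did. Their median was 0.44, and 4 were 2-fold higher, where 1.37% of genes were. In APAP 7 read higher and 9 lower than control, with a median of -0.13, and 1 was 2-fold lower, where 1.14% were. Against AMAP, 14 of 16 read lower in APAP at 2 h, as 45.6% of all probe sets did. The median was -0.70, and 5 were 2-fold lower, where 1.27% of genes were. At 6 h APAP read higher than AMAP in 12 of 16 and in 63.9% of all probe sets, with a median of 0.40 beside 0.23 over all genes. There 3 of the 16 were 2-fold higher in APAP, where 3.99% of genes were. They were Trib3, Atf4 and Mthfd2, by 1.44, 1.17 and 1.08. At 24 h 12 read lower in APAP than in control, as 33.5% of all probe sets did, with a median of -0.45 beside 0.17 over all genes. Of the 16, 5 were 2-fold lower, where 3.79% of genes were, while Atf3 was 2-fold higher. In AMAP the median at 24 h was 0.13 beside 0.16.

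The ATF4 genes farthest apart were Atf3, Ddit3, Nupr1 and Trib3. Atf3, a stress-induced partner, read 7.07 log2 in APAP, 10.59 in AMAP and 6.66 in control at 2 h. Ddit3, which encodes the stress factor CHOP, read 6.33 in APAP, 9.14 in AMAP and 7.42 in control at that time. At 24 h Nupr1, a stress-induced chromatin protein, read 6.13 in APAP, 8.31 in AMAP and 8.56 in control. Trib3, a pseudokinase that restrains ATF4, read 6.64 in APAP, 8.73 in AMAP and 8.53 in control at 24 h. For these last 2 genes APAP was the low array, as for Cth at 24 h, whereas Atf3 was above control with either compound at that time, by 2.104 in APAP and 1.94 in AMAP.

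**Figure D4:**
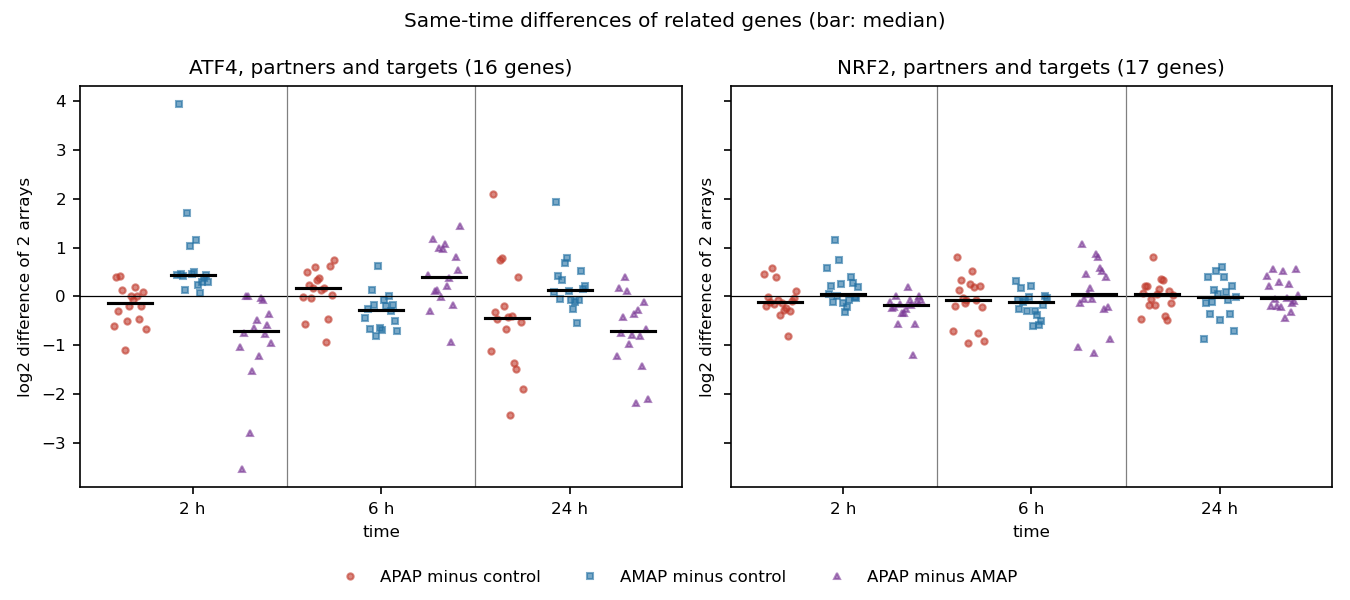
Log2 differences between 2 arrays of the same time (y axis) for the genes of the ATF4 list (16 genes) and the NRF2 list (17 genes) at 2, 6 and 24 h, as APAP minus control (circles), AMAP minus control (squares) and APAP minus AMAP (triangles), each point 1 gene and each bar the median. The ATF4 medians at 2 h are -0.13, 0.44 and -0.70 in that order, and the NRF2 medians lie between -0.17 and 0.05 in all 9 comparisons.

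NRF2, its partners and other targets, 17 of 20 measured, gave medians of -0.17 to 0.05, beside medians over all genes of -0.12 to 0.23. At 2 h 13 read lower and 4 higher in APAP than in control, with a median of -0.12, while 46.8% of all probe sets read lower. In AMAP 10 read higher than control, with a median of 0.04, while 45.7% of all probe sets did so. Against AMAP, 14 of 17 read lower in APAP at 2 h and 2 higher, while 45.6% of all probe sets read lower. The median was -0.17, so the count was like that of the ATF4 list and the median smaller. At that time none of the 17 was 2-fold from control in APAP, where 2.07% of genes were. In AMAP 1 was, where 1.81% were. That gene was Maff, a small Maf partner of NRF2, at 8.21 log2 in AMAP against 7.07 in control. Sqstm1, the p62 adaptor that frees NRF2 from KEAP1, differed by -1.20 between APAP and AMAP at 2 h. It was 1 of the 16 listed genes past the level filter, where 1.27% of genes were 2-fold lower. Nfe2l2, which encodes NRF2, differed by -1.16 between them at 6 h, and Hmox1, heme oxygenase, by 1.08.

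Among 12 amino acid carriers, all measured, those 2-fold apart were Slc6a9, Slc1a4, Slc38a2 and Slc1a5. Slc6a9, a glycine carrier, read 6.16 log2 in APAP, 8.20 in AMAP and 7.56 in control at 24 h. Slc1a4, a carrier of small neutral amino acids, read 5.96 in APAP, 7.33 in AMAP and 6.61 in control at 2 h. Both were lower in APAP than in AMAP at 2 and 24 h, as Slc7a11 and Cth were. At 6 h both carriers were higher in APAP than in AMAP, by 0.55 and 0.44. In AMAP at 24 h both carriers lay above control, whereas Slc7a11 and Cth lay below it. Slc1a5 and Slc38a2 were 2-fold apart at 6 h, where 11.9% of genes were between APAP and AMAP, with differences of 1.02 and -1.26. Of the 12 carriers, 11 read higher in APAP than in AMAP at 6 h, as 63.9% of all probe sets did. The 6 h median was 0.62 beside 0.23 over all genes. At 24 h the direction was the other way, and 11 of 12 carriers read lower in APAP than in AMAP, as 49.1% of all probe sets did. Their median was -0.27 beside 0.0014 over all genes. Only 7 of the 12 passed the level filter, and 2 were 2-fold lower, where 1.47% of genes were.

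Glutathione use, recycling and breakdown gave 23 of 26 genes with medians between -0.13 and 0.35 in the 9 comparisons, beside -0.12 to 0.23 over all genes. Chac1, which degrades glutathione in the cytosol, read 5.06 log2 in APAP, 6.26 in AMAP and 6.09 in control at 2 h, and 6.20, 8.57 and 7.62 at 24 h. It was thus lower in APAP than in AMAP at both times, by -1.21 and -2.37, where 1.27% and 1.47% of genes were 2-fold lower. Chac1 went the other way at 6 h, where APAP was 1.32 above AMAP and 3.99% of genes were 2-fold higher. Its relative Chac2 was 1.22 above control in AMAP at 6 h, where 1.31% of all genes were 2-fold apart. The microsomal glutathione transferase Mgst1 differed from control by -1.03 in APAP at 24 h. There 2 of 17 listed genes past the level filter were 2-fold lower and 1 higher, where 7.18% of all genes were 2-fold apart. Ggt7, of the gamma-glutamyltransferase family, was 1.03 above control in APAP at 6 h, from a low level, where 6.83% were. Of 15 measured genes of 18 in the methionine cycle and sulfur amino acid breakdown, 3 were 2-fold apart in a single comparison each. Each was 1 of the 8 or 9 listed genes that passed the level filter. Ethe1, which oxidises persulfide sulfur, was 1.11 above control in APAP at 24 h, where 7.18% of all genes were 2-fold apart. Mpst, a sulfurtransferase, was 1.25 above AMAP in APAP at that time, where 3.29% were, with AMAP low at 4.82 log2. Mtrr, which reactivates methionine synthase, differed from control by -1.03 in APAP at 6 h, where 6.83% were.

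Across the 9 arrays the brightest probe sets of the members varied together only in part. Slc7a11 and Gclm correlated at r = 0.74 and Slc7a11 and Cth at r = 0.63, while Cth and Gss gave -0.31 and Slc7a11 and Cdo1 -0.37. Among 6706 other genes above the median level, those most like Cth were Psph, a serine synthesis enzyme of the ATF4 list (r = 0.92), BC005537 (r = 0.90) and Eif2ak3 (r = 0.89). Those most like Gclc were Pbx3 (r = 0.96), Pigo (r = 0.92) and Sppl2a (r = 0.87), and those most like Gclm were Scarb2 (r = 0.93), Angel2 (r = 0.92) and Dcn (r = 0.92). For Cdo1 they were Enpp3 (r = 0.94), Sdhaf1 (r = 0.93) and Rai1 (r = 0.89). These are descriptions of 9 arrays that share culture times.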

How the data were processed

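Per the submitters' processing notes, the authors ran RMA in Affymetrix Expression Console, and the deposited unit is log2 expression per probe set. Its version is not given in the sources used here, nor is whether the arrays were normalized together. RMA equalises probe intensities between arrays, which hides a change in total RNA. The 64 control probe sets were left out of the tests.

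Groups came from the sample titles. GEO's platform annotation gave 1 symbol for 20380 of 22626 probe sets, several for 691 and none for 1555, and genes were named only from the first kind. A gene of a list was represented by its brightest probe set. Same-time differences of 2 arrays carry no test. For shared effects a model of treatment plus time (the block) was fitted in limma 3.58.1 (R 4.3.3), with 4 residual degrees of freedom and a Benjamini-Hochberg adjustment over all 22626 probe sets, and the fit was tested on simulated data. From each list up to 4 genes with the widest 2-fold differences were named, and for likeness up to 3 genes per member. Each treatment has 3 arrays of different times and no true replicate. Precision is set by this number of arrays. The members and lists were chosen with earlier results of these data known. Comparisons at the same time share their control or treated arrays. Alternatives were other scalings, thresholds, filters, variance priors, blocks and subsets of arrays.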

Additional observations from a re-analysis of the deposited data

Results flagged for a closer look

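The difference in Slc7a11 readings changed direction between times. In AMAP against control it was 1.42 log2 at 2 h and -0.94 at 6 h, and in APAP against AMAP it was -1.59 at 2 h, 0.72 at 6 h and -0.69 at 24 h. Each value is the difference of a single pair of arrays. At 6 h all 3 arrays lay under the median of all values, so the 6 h values did not pass the level filter. The 2 h and 24 h values passed it only through the AMAP array. The 2 h control (4.32) and APAP (4.15) readings are not shown to be above background, so no fold is given. The difference between the times was not tested.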

How the results depend on the processing

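Under cyclic loess 2 member probe sets in place of 1 were 2-fold apart between APAP and AMAP at 2 h. At a 1.5-fold threshold the counts became 2 in place of 1 for that comparison, 1 in place of 0 for APAP against control and 3 in place of 0 for APAP against AMAP at 6 h, and 3 in place of 0 for AMAP against control and 2 in place of 1 for APAP against AMAP at 24 h. No other count of members changed by over 1.5 times under median centring, cyclic loess, a 1.5-fold threshold or no filter on low values, and no 2-fold difference of a member changed sign. Cyclic loess moved single differences of members by at most 0.23 log2 and median centring by at most 0.11. In the shared fit 0 probe sets passed in every setting run, including without a replicate block, that is with time left out, where the unadjusted counts were 1640, 116 and 1109 for APAP against control, AMAP against control and APAP against AMAP. Leaving out 1 time gave unadjusted counts of 894 to 1644, 29 to 782 and 571 to 1245, and 1 to 2, 0 to 2 and 0 to 2 members among them. The 2 for AMAP against control arose without the 6 h arrays. No paired analysis by replicate number was possible because each group has 1 array. Without the 3 arrays that stood apart, an alternative chosen after the data were seen, 0 passed as well, but 12 of the 33 shared effects of members (11 probe sets in 3 contrasts) took the other sign, none of them called. Leaving out the 2, 6 or 24 h arrays turned 8, 10 and 5. For Cdo1, APAP against control went to -0.94 in place of -0.35 and APAP against AMAP to -0.41 in place of 0.08 without the 3 arrays. No difference at 6 or 24 h in APAP, or at 24 h in AMAP, can be had without them.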

Other observations

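The control arrays differed 2-fold over culture time in Slc7a11, Cth and Cdo1. Slc7a11 was higher at 24 h than at 2 h by 1.87 log2, passing the level filter only through the 24 h array. It was higher at 6 h than at 2 h by 1.12, with both arrays under the median of all values. Cth was higher at 24 h than at 6 h by 1.10, and Cdo1 was lower at 6 h than at 2 h, at -1.14. Between the control arrays of 6 and 2 h, 1 of the 10 member probe sets past the level filter was 2-fold apart, where 1.73% of all that passed were. For 24 against 2 h 1 of 11 was, against 0.942%, and for 24 against 6 h 1 of 11, against 2.17%. Among the other members no control difference passed 0.89 in size, that of the brighter Gclc probe set between 24 and 6 h.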
